A study of Mus musculus with 45 samples.

Results

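The genes described here are 8 keratins, the proteins of the intermediate filaments of epithelial cells. Krt8, Krt18, Krt19 and Krt7 are keratins of simple, single-layered epithelium, and Krt5, Krt14, Krt15 and Krt17 belong to stratified epithelium. They were taken by gene symbol from the authors' deposited model table, each with 1 probe set, so they make up 8 of the 28944 probe sets with a value. All 8 were present and all 8 passed the variance filter. The rows were found by gene symbol, but the 8 genes were chosen with earlier results of these data known. The model table holds 9626 of the probe sets, and genes it does not name could not be taken.

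Expression was measured on 45 arrays (Affymetrix Mouse Gene 1.0 ST) from the facial prominences of mouse embryos, the buds of tissue that form the nose and jaws. All embryos were C57BL6/J, an inbred wild-type strain with no transgene or treatment, and each sample was a pool of several embryos. Ectoderm, the covering epithelium, had been peeled from the underlying mesenchyme after Dispase II digestion. The 15 groups of 3 biological replicates were the following. Ectoderm came from the mandibular prominence at E10.5 (E gives the embryonic day), and from the frontonasal, maxillary and mandibular prominences at E11.5 and at E12.5. Mesenchyme came from the frontonasal and mandibular prominences at E10.5, and from all 3 prominences at E11.5 and at E12.5. Pools hide the spread between embryos, and the peeled layers are dissected tissue, not sorted cells.

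Keratin filaments are built from pairs of a type II and a type I keratin. Krt8 (type II) pairs with Krt18 (type I) in early embryonic and simple epithelia, where Krt7 (type II) and Krt19 (type I) are also found. Krt5 (type II) pairs with Krt14 (type I) in the basal cells of stratified epithelium, with Krt15 (type I) as a further basal partner, while Krt17 (type I) is known from the periderm, the transient outer cell layer, and from growing skin appendages. The embryonic surface begins as a single layer with Krt8 and Krt18 and then stratifies, a change in which the transcription factor Trp63 and the basal keratins are known to take part.

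In the RefSeq tables the type I genes Krt14, Krt15, Krt17 and Krt19 lie on chromosome 11 and the genes Krt5, Krt7, Krt8 and Krt18 on chromosome 15. Krt8 and Krt18 are neighbours with 0 protein-coding genes between them, as are Krt15 and Krt19. The RefSeq promoter table (GRCm38.p6) held a window at the gene's start for 4 of the 8 keratins. Their 250 bases before the start are shown because Krt8 and Krt18 had nearly parallel group means, while Krt5 ran against them with age in ectoderm and Krt7 changed little. Capitals mark matches to the motifs searched on both strands. The windows lie at chr15:102004343-102004592 (Krt8, minus strand), chr15:102027966-102028215 (Krt18, plus strand), chr15:101712906-101713155 (Krt5, minus strand) and chr15:101412153-101412402 (Krt7, plus strand).
Krt8: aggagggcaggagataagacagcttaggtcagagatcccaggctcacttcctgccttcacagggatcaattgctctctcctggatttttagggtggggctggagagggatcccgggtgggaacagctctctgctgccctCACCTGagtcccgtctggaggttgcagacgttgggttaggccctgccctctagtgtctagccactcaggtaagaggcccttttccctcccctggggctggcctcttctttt
Krt18: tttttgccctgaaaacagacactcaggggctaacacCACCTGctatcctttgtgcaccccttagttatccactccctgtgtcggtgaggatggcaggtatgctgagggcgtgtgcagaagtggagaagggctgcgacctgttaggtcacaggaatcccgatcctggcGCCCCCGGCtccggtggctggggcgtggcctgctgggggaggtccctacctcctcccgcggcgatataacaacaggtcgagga
Krt5: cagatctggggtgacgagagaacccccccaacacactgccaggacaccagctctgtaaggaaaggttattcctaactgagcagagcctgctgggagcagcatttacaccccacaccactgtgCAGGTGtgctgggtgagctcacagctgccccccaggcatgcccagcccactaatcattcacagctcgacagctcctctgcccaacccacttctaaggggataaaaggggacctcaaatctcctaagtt
Krt7: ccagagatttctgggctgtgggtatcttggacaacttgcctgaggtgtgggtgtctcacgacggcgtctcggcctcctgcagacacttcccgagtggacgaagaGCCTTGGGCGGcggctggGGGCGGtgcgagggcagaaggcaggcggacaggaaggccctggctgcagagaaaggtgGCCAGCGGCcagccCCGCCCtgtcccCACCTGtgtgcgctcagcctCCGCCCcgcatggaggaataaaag
The motif CACCTG, the core of E-box sites bound by zinc finger repressors such as Zeb and Snail proteins, matched 1 time in each of the 4 windows, against 17.2% of the 32851 windows in the table. It was added to the search after the windows had been read. GCCNNNGGC, the palindrome of AP-2 factors, matched 1 time in Krt18, 2 times in Krt7, and 0 times in Krt8 and Krt5 (13.7% of all windows). The GC box GGGCGG matched 4 times in Krt7, where 1 match overlaps an AP-2 palindrome, and 0 times in the other 3 (32.7%). TATAAA (12.4%) and the AP-1 motif TGANTCA (6.75%) had 0 matches in all 4. These are letters in a window, not measured sites.

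Each array detected between 22008 and 26532 probe sets, and the array medians lay between 5.97 and 6.22 log2 units. The layers carried their labels in their markers. The mean log2 signal of 12 epithelial markers other than keratins was 9.07 to 9.72 on ectoderm arrays, and that of 12 mesenchyme markers was 9.20 to 10.76 on mesenchyme arrays. Separation was not complete on either side. The mesenchyme markers averaged 5.87 to 8.50 on the ectoderm arrays. The epithelial markers averaged 7.67 to 8.10 on the 9 frontonasal mesenchyme arrays, against 5.51 to 6.55 on the 15 other mesenchyme arrays. Of the maxillary mesenchyme, replicate 2 stood apart at both ages, with epithelial means of 6.55 at E11.5 and 6.30 at E12.5, against 5.51 and 5.68, and 5.74 and 5.81, in the other replicates. Its keratin values were high as well, and results that change without these 2 arrays are given with both values. Replicate 3 of the frontonasal ectoderm at E12.5 had the lowest array weight of all (0.0850), a weight being lower the further an array lies from its group over all tested probe sets. In maxillary mesenchyme at E12.5, replicate 2 had a weight of 2.34, while replicate 1 had 0.224 and the highest number of detected probe sets. In bulk tissue, fewer cells of a type and less RNA per cell cannot be told apart.

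**Figure D1:**
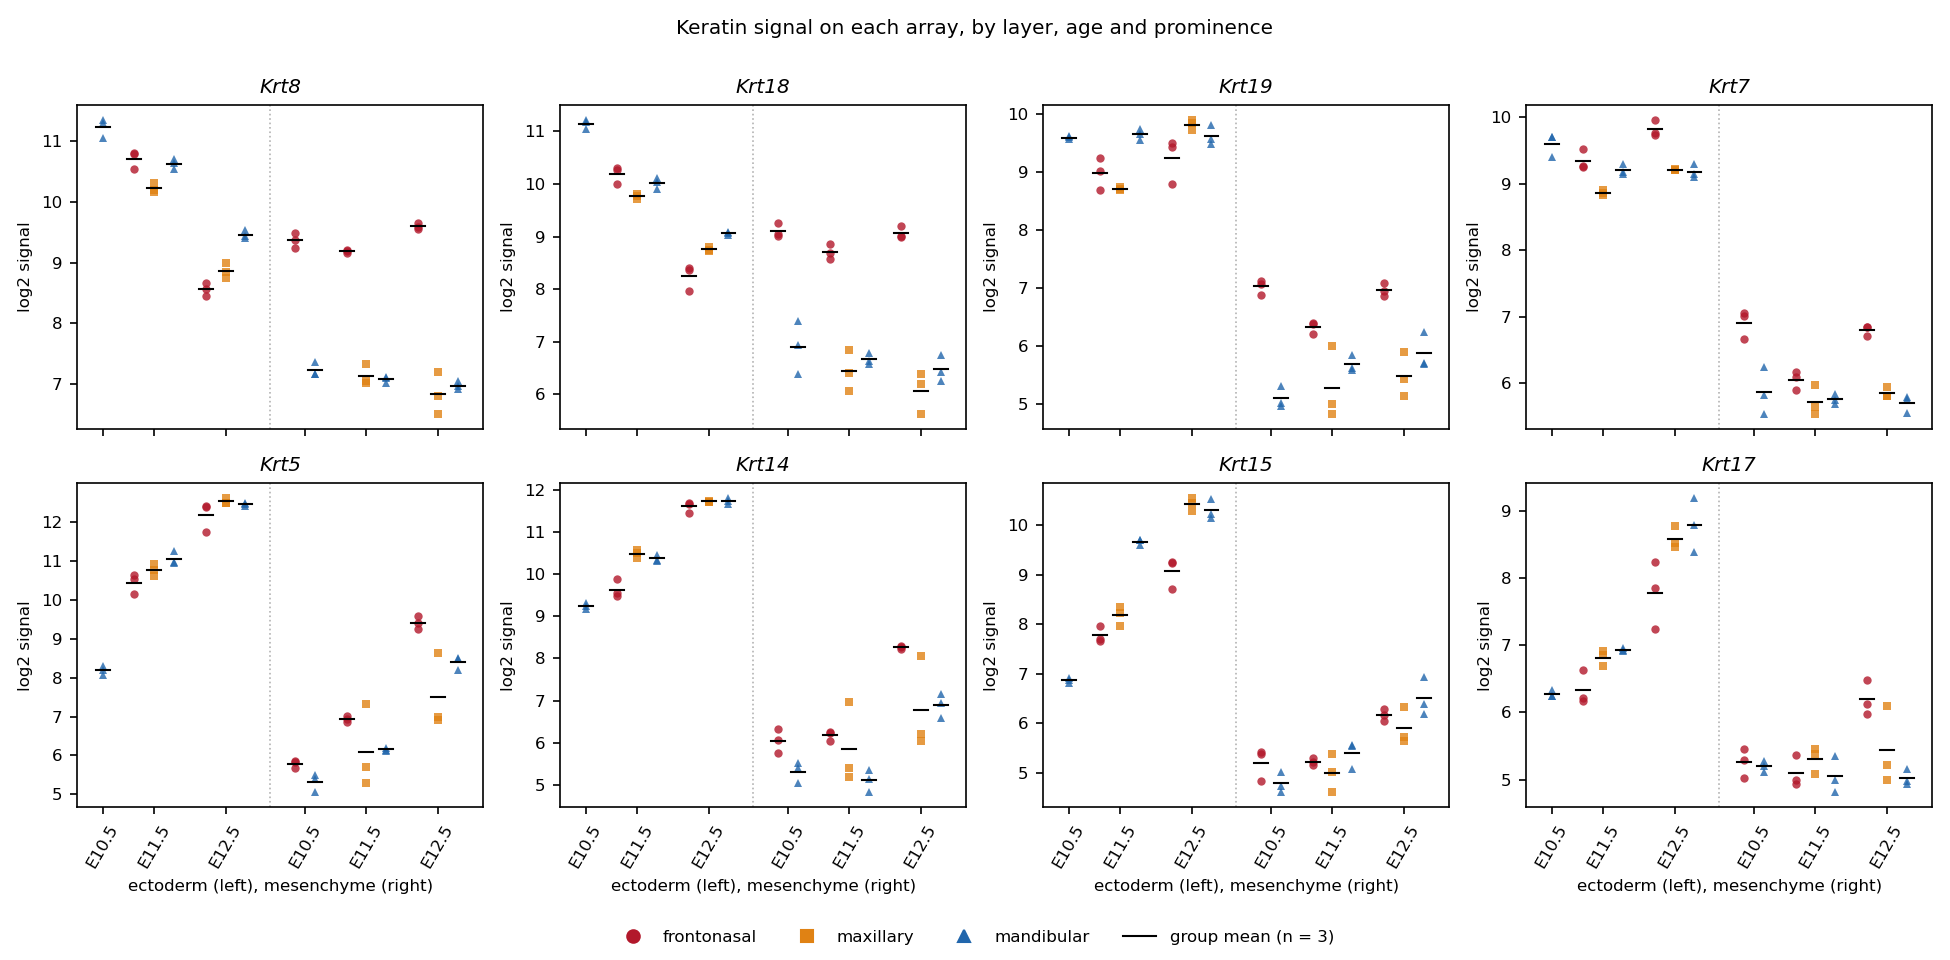
Log2 signal of each keratin (vertical axis) on all 45 arrays, with ectoderm left and mesenchyme right of the dotted line and ages in order within each layer. Points are arrays, coloured by prominence, and bars are group means (n = 3). Krt8 and Krt18 fell with age in ectoderm while Krt5, Krt14, Krt15 and Krt17 climbed, and the frontonasal mesenchyme stands above the other mesenchyme for Krt8 and Krt18.

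The comparison of layers asked which keratins set the surface epithelium apart from the mesenchyme beneath it. Averaged over the 7 combinations of prominence and age that have both layers, all 8 keratins were higher in ectoderm, where 69.6% of the 14472 tested probe sets were called and 35.9% were higher. The median difference of the 8 was 3.34 log2 units, against 0.03 over all tested probe sets. The basal pair differed most. Krt14 was 4.34 ± 0.12 log2 units higher (SE, limma, 20.3-fold, adjusted p = 1.08e-27) and Krt5 3.97 ± 0.12 (15.7-fold, adjusted p = 1.01e-26), each from 21 ectoderm and 21 mesenchyme arrays. Krt19 followed at 3.55 ± 0.08 (11.7-fold), Krt7 at 3.36 ± 0.05 (10.2-fold) and Krt15 at 3.32 ± 0.07 (9.99-fold). The simple pair differed less on average, Krt18 by 2.41 ± 0.07 (5.30-fold) and Krt8 by 2.23 ± 0.04 (4.70-fold), and Krt17 differed by 2.03 ± 0.08 (4.09-fold). The highest adjusted p of the 8 was 1.12e-22, for Krt17. Without the 2 maxillary mesenchyme arrays that stand apart, Krt5 differed by 4.14 ± 0.06 and Krt14 by 4.52 ± 0.05.

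Over all arrays, the ectoderm and mesenchyme values of Krt14, Krt19 and Krt7 did not overlap, while those of the other 5 did (8.69% of tested probe sets did not overlap). Krt14 ran from 9.18 to 11.80 with a median of 10.49 in ectoderm, against 4.82 to 8.29 with a median of 6.14 in the 24 mesenchyme arrays. Krt7 ran from 8.83 to 9.96 (median 9.25) in ectoderm, against 5.53 to 7.05 (median 5.87) in mesenchyme. Krt8, in contrast, ran from 8.45 to 11.35 (median 10.19) in ectoderm, against 6.50 to 9.66 (median 7.18) in mesenchyme. In the mesenchyme of the 7 combinations, Krt17 was above background on 16 of 21 arrays, Krt19 on 17 and Krt14 on 19, and the other 5 on all 21.

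Within single combinations the 8 keratins were all higher in ectoderm in 6 of 7. Of all probe sets, 39.8% were called in the mandibular prominence at E10.5. At E11.5 the share was 36% in the frontonasal, 40.2% in the maxillary and 36.9% in the mandibular prominence, and at E12.5 it was 42.2% in the maxillary and 46.5% in the mandibular prominence. The exception was the frontonasal prominence at E12.5, where 6 were higher and 2 lower (48.1% of probe sets called in either direction, 23.6% lower). Krt8 had 8.56, 8.45 and 8.66 log2 units in frontonasal ectoderm at E12.5, against 9.55, 9.66 and 9.58 in the mesenchyme under it. Every ectoderm value lay below every mesenchyme value, and the difference was -1.04 ± 0.12 (SE, limma, adjusted p = 1.54e-09). Krt18 had 8.41, 8.37 and 7.96 in that ectoderm, against 9.02, 9.00 and 9.20 in the mesenchyme, again without overlap (-0.83 ± 0.18, adjusted p = 0.000281). Over 55 alternative settings these differences stayed between -1.09 and -0.98 for Krt8 and between -0.91 and -0.68 for Krt18, all past the threshold.

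The opposite end was the mandibular prominence at E10.5. There Krt8 averaged 11.24 ± 0.15 in ectoderm and 7.23 ± 0.12 in mesenchyme (SD, n = 3 each), a difference of 4.01 ± 0.12 (SE), and Krt18 differed by 4.24 ± 0.18. Krt7 was the steadiest, with differences between 3.02 ± 0.13 in the frontonasal prominence at E12.5 and 3.74 ± 0.13 in the mandibular prominence at E10.5. Krt17 ran from 1.08 ± 0.22 in the mandibular prominence at E10.5 to 3.76 ± 0.22 in the same prominence at E12.5.

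**Figure D2:**
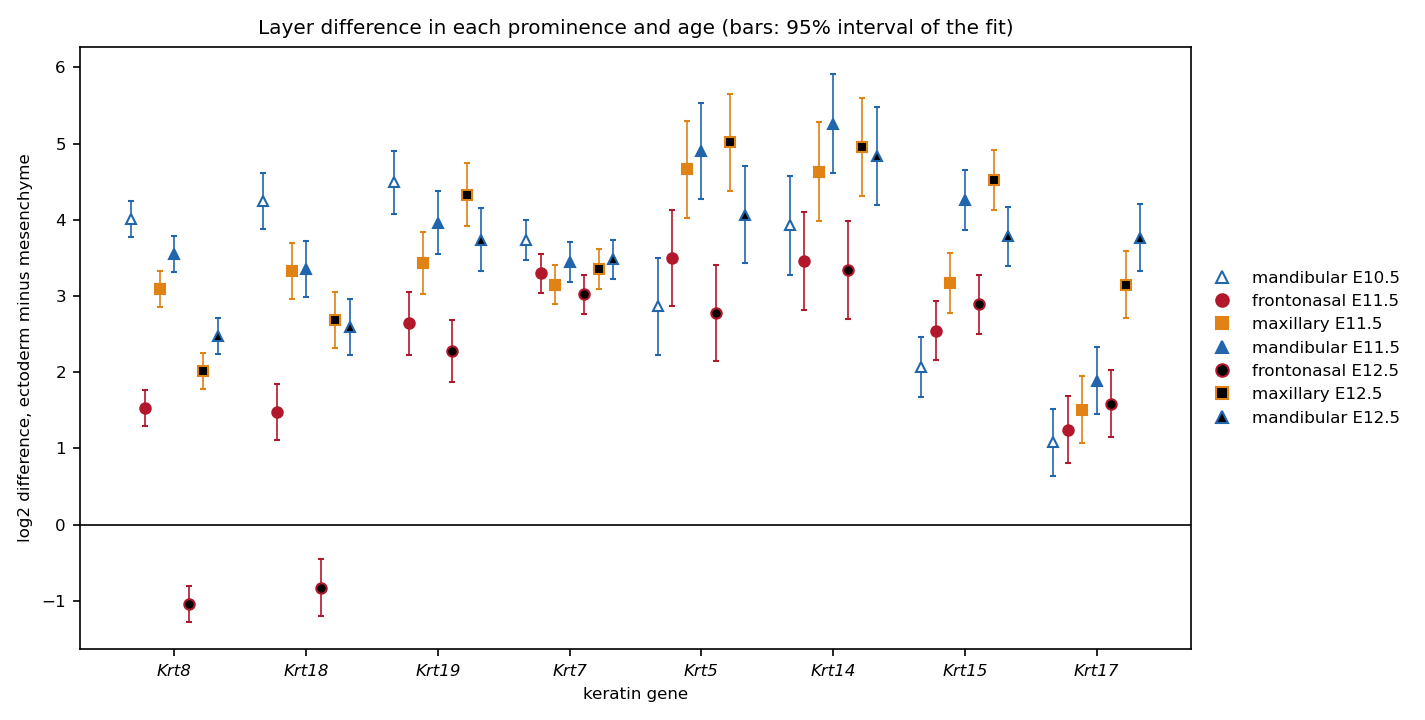
Difference between ectoderm and mesenchyme in log2 units (vertical axis) for each keratin in the 7 combinations of prominence and age, with the interval of the fit as bars. Krt8 and Krt18 lie below 0 in the frontonasal prominence at E12.5 (-1.04 and -0.83) and above 0 in the other 6 combinations, and the other 6 keratins lie above 0 in all 7.

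Genes that work with keratin filaments differed between the layers as well. Only genes named in the authors' model table could be counted. These were 18 of 19 listed anchoring genes, 17 of 17 transcription factors, 14 of 32 other keratins and 9 of 14 other intermediate filament genes. The shares are over all 14472 tested probe sets, in that table or not, and so are not matched to the lists. Of the 18 measured genes that anchor keratin at desmosomes and hemidesmosomes, 18 were higher in ectoderm (35.9% of all tested probe sets were higher). Their median difference was 1.84. They included Perp (4.25 ± 0.10), a desmosomal membrane protein, Dsp (4.17 ± 0.12), which ties keratin to desmosomes, the desmosomal cadherin Dsc2 (3.34 ± 0.07) and Dsg2 (3.01 ± 0.08). Of 17 epithelial transcription factors, 15 were higher, among them Trp63 (3.67 ± 0.07), Grhl3 (3.54 ± 0.08) and Grhl2 (3.19 ± 0.06). Of 14 other keratins, 11 were higher and 3 did not pass, with a median difference of only 0.27. Krt6a differed most (0.80 ± 0.06) and was detected on 16 of 21 ectoderm arrays against 2 of 21 mesenchyme arrays, followed by Krt1 and Krt75 (0.52 each) and Krt31 (0.34). Krt16 was detected on 0 arrays of either layer. Related keratins share sequence, and how far their probe sets share probes was not tested. Of 9 other intermediate filament genes, 9 were lower in ectoderm (33.7% of tested probe sets were lower), including Vim, the vimentin of mesenchyme (-1.12 ± 0.05), and Des (-1.04 ± 0.06).

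The comparison of ages in ectoderm asked how the keratins change while the surface stratifies. From E11.5 to E12.5, the simple pair fell and the stratified keratins rose in all 3 prominences. Krt15 in mandibular ectoderm was the weakest of these (0.63 ± 0.19, adjusted p = 0.0220), and it did not pass without replicate 2 or 3 at E11.5 or replicate 1 at E12.5 (0.52 to 0.65). The shares of probe sets called were 20.1% in the frontonasal, 10.6% in the maxillary and 12.6% in the mandibular ectoderm. Averaged over the prominences, 6 of the 8 were higher at E12.5 and 2 were lower (28.7% of probe sets called, 11.9% higher and 16.8% lower). Krt17 was 1.69 ± 0.13 log2 units higher (SE, limma, 3.22-fold), Krt5 1.64 ± 0.18 (3.11-fold), Krt14 1.52 ± 0.18 (2.88-fold) and Krt15 1.39 ± 0.11 (2.61-fold). Krt8 fell by 1.57 (SE 0.07, adjusted p = 7.66e-20) and Krt18 fell by 1.30 (SE 0.11, adjusted p = 2.58e-12).

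Among the 9 ectoderm arrays of each age, Krt8 lay between 8.45 and 9.53 at E12.5 and between 10.17 and 10.81 at E11.5. The ages did not overlap for Krt8, Krt18, Krt5, Krt14 and Krt17, 5 of the 8, where 3.35% of probe sets did not overlap. Krt5 had 12.39, 12.40 and 11.75 in frontonasal ectoderm at E12.5, against 10.52, 10.14 and 10.63 at E11.5. It had 12.61, 12.49 and 12.48 in maxillary ectoderm at E12.5, against 10.77, 10.60 and 10.92 at E11.5. The mandibular values were 12.49, 12.47 and 12.41 at E12.5, against 11.25, 10.97 and 10.94 at E11.5. In each prominence every E12.5 value of this basal keratin lay above every E11.5 value.

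Krt19 and Krt7 moved less. Krt19 was 0.45 ± 0.12 higher at E12.5 (adjusted p = 0.00306), and only the maxillary ectoderm passed the test by itself, with 9.90, 9.84 and 9.72 at E12.5 against 8.74, 8.69 and 8.71 at E11.5 (1.11 ± 0.20). The maxillary change in Krt19 was larger than the mandibular one by 1.14 ± 0.29 (adjusted p = 0.0156). Krt7 was 0.27 ± 0.07 higher at E12.5 (adjusted p = 0.00517), with the frontonasal ectoderm passing by itself (0.48 ± 0.13). That frontonasal call was lost when only the groups compared were fitted (adjusted p = 0.164), and the maxillary ectoderm (0.35) passed in 2 of 55 alternatives.

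The mandibular ectoderm was measured at E10.5 as well, and its course can be read over 3 ages. Krt8 gave 11.35, 11.30 and 11.06 at E10.5, 10.70, 10.54 and 10.64 at E11.5, and 9.53, 9.43 and 9.40 at E12.5, so each age lay below the one before it. Krt18 gave 11.18, 11.22 and 11.05 at E10.5, 10.12, 9.90 and 10.04 at E11.5, and 9.09, 9.04 and 9.07 at E12.5. Krt5 gave 8.20, 8.06 and 8.29 at E10.5, 11.25, 10.97 and 10.94 at E11.5, and 12.49, 12.47 and 12.41 at E12.5. In all 3 genes no age overlapped another.

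Between E10.5 and E11.5 in that ectoderm, 4 of the 8 keratins were higher at E11.5 and 3 lower (18.4% of probe sets called). Krt5 was 2.87 ± 0.31 higher (7.31-fold, adjusted p = 1.17e-08) and Krt15 2.79 ± 0.19 (6.93-fold, adjusted p = 2.41e-13). Krt14 was 1.13 ± 0.32 higher and Krt17 0.66 ± 0.22. Krt18 fell by 1.13 (SE 0.18), Krt8 fell by 0.61 (SE 0.12) and Krt7 fell by 0.40 (SE 0.13). The Krt17 call was lost without any 1 of the 6 arrays (0.64 to 0.69), and the Krt7 call without replicate 1 or 2 at E10.5 or replicate 2 or 3 at E11.5 (-0.38 to -0.35). Krt19 did not pass (0.06 ± 0.20, interval -0.36 to 0.47). Krt15 averaged 6.87 ± 0.05 at E10.5, 9.66 ± 0.06 at E11.5 and 10.29 ± 0.21 at E12.5 (SD, n = 3). Krt17 averaged 6.28 ± 0.05, 6.94 ± 0.02 and 8.79 ± 0.41 at the same ages. The difference between these courses was not tested. The mesenchyme markers were higher at E11.5 than at E10.5 in this ectoderm for 12 of 12 genes (list means 7.02 to 8.41 at E11.5 against 5.87 to 6.34 at E10.5), while 0 of 12 epithelial markers rose and 1 fell. The 6 measured markers of pharyngeal endoderm had list means in this ectoderm of 6.16 to 6.46 at E10.5 and 6.34 to 6.47 at E11.5. At E12.5 these were 5.86 to 5.94, and on the frontonasal and maxillary ectoderm arrays they were 5.54 to 6.16. What part these marker changes have in the keratin differences was not tested.

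**Figure D3:**
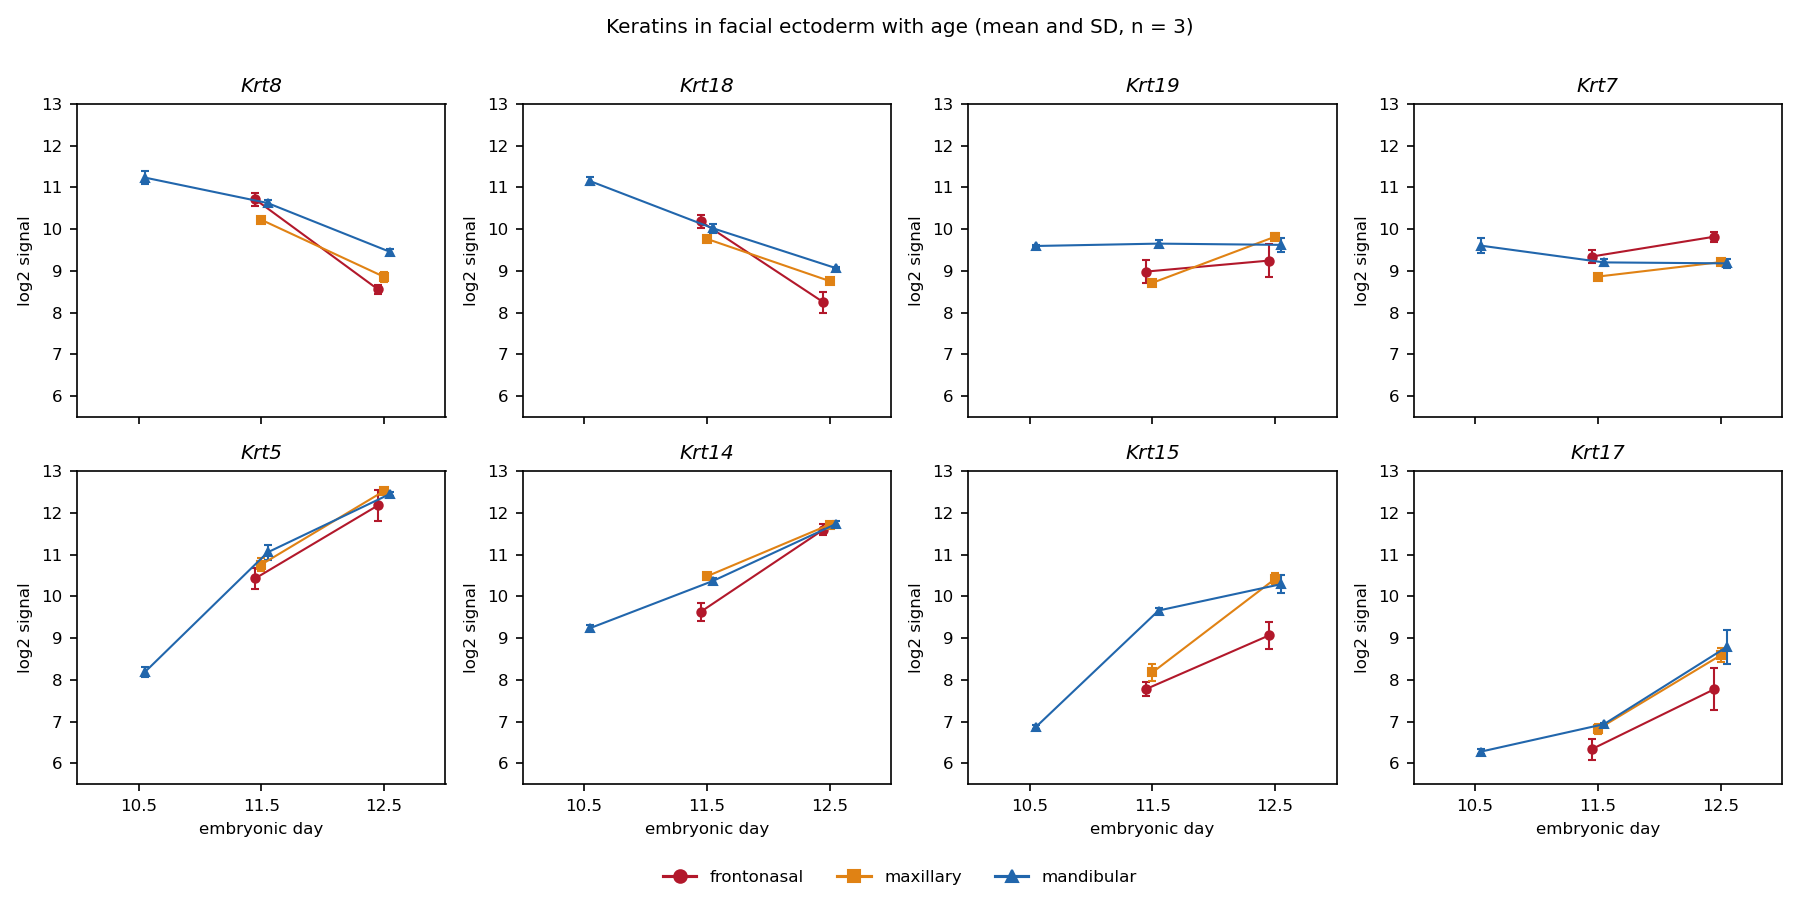
Mean log2 signal of each keratin in ectoderm (vertical axis, bars show SD, n = 3) against embryonic day for the 3 prominences. Lines for Krt8 and Krt18 descend, lines for Krt5, Krt14, Krt15 and Krt17 ascend, and Krt19 and Krt7 stay between 8.71 and 9.82.

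Over the 7 ectoderm groups, the group means of Krt8 and Krt18 went together (Pearson r = 0.98), as did those of Krt5 and Krt14 (r = 0.94), and Krt14 ran against Krt8 (r = -0.94) and Krt18 (r = -0.94). These are descriptions over groups that share the age course. In the 8 mesenchyme groups Krt8 and Krt18 again went together (r = 0.99), but Krt14 and Krt8 did not run opposite (r = 0.44).

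Anchoring genes changed with age in the ectoderm. Of 18, 13 were higher at E12.5 and 2 lower, with a median of 0.36 against 0.01 over all probe sets. Dsc3 (1.70 ± 0.18), a cadherin of basal desmosomes, Col17a1 (1.39 ± 0.09) and Itgb4 (0.94 ± 0.08), both of hemidesmosomes, and the plakophilin Pkp1 (0.95 ± 0.07) were higher. Pkp2, a plakophilin also found in simple epithelium, fell by 0.61 (SE 0.12), and Cd151, a tetraspanin, fell by 0.39 (SE 0.06). Of the 14 other keratins 7 rose and 0 fell, led by Krt6a (1.05 ± 0.10), known from periderm, Krt1 (0.58 ± 0.08), known from suprabasal cells, and Krt75 (0.38 ± 0.08). Krt6a was detected on 9 of 9 ectoderm arrays at E12.5 and 6 of 9 at E11.5. The list of other keratins lay low, with group means of 4.89 to 5.33 in the ectoderm of these ages. Between 8 and 11 of its 14 genes were detected on each such array, and detection of Krt1 and Krt75 is not reported here. Of the 17 transcription factors 5 rose and 12 did not pass. Grhl1 rose by 0.83 ± 0.09, Tfap2b by 0.48 ± 0.10 and Cebpa by 0.41 ± 0.07, and Trp63 gave 0.11 ± 0.11. Of the 12 epithelial markers other than keratins 0 rose and 4 fell, with a median of -0.04. The mesenchyme markers had 2 higher and 5 lower of 12.

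The comparison of prominences within ectoderm concerned regional differences of the surface. Of 24 tests (8 keratins in 3 pairs of prominences, averaged over E11.5 and E12.5), 10 passed. Krt15 passed in all 3 pairs. It differed by -1.55 ± 0.14 between frontonasal and mandibular ectoderm (adjusted p = 5.20e-11), by -0.88 ± 0.14 between frontonasal and maxillary ectoderm (adjusted p = 1.90e-05), and by -0.68 ± 0.14 between maxillary and mandibular ectoderm (adjusted p = 0.000870). At E11.5 it gave 7.71, 7.67 and 7.96 in frontonasal, 7.96, 8.22 and 8.35 in maxillary, and 9.70, 9.69 and 9.59 in mandibular ectoderm. At E12.5 it gave 9.26, 9.23 and 8.70 in frontonasal, 10.54, 10.44 and 10.28 in maxillary, and 10.53, 10.14 and 10.21 in mandibular ectoderm. The maxillary ectoderm thus lay near the frontonasal at E11.5 and overlapped the mandibular at E12.5. The maxillary difference from mandibular moved by 1.61 ± 0.27 between the ages (adjusted p = 0.000342, 3.09% of probe sets called).

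Between frontonasal and mandibular ectoderm 5 of 8 keratins passed, 1 higher and 4 lower (23.1% of probe sets called). Besides Krt15, frontonasal ectoderm was lower for Krt17 (-0.81 ± 0.15), Krt19 (-0.52 ± 0.14) and Krt8 (-0.41 ± 0.08), and higher for Krt7 (0.39 ± 0.09), on average over both ages. Krt8 was lower at E12.5 (-0.90 ± 0.12, adjusted p = 5.45e-07) and did not pass at E11.5 (0.09 ± 0.12, adjusted p = 0.703). By single ages Krt17 and Krt7 passed at E12.5 but not at E11.5, and Krt19 at E11.5 but not at E12.5, and the change between the ages did not pass for these 3. Krt18 was also lower in frontonasal ectoderm at E12.5, with means of 8.25 against 9.07 in mandibular ectoderm. It passed neither at E11.5 (10.19 against 10.02) nor on average over both ages (-0.33). Between maxillary and mandibular ectoderm, Krt15 and Krt8 (-0.50 ± 0.08) were lower in the maxillary on average, 2 of 8 (5.04% called). The Krt19 means there were 8.71 against 9.65 at E11.5 and 9.82 against 9.62 at E12.5. Between frontonasal and maxillary ectoderm, Krt15 and Krt17 (-0.65 ± 0.15) were lower and Krt7 (0.55 ± 0.09) higher in the frontonasal on average, 3 of 8 (9.24% called). Krt8 changed order with age between these 2, with means of 10.71 against 10.22 at E11.5 and 8.56 against 8.86 at E12.5. Krt19 between frontonasal and mandibular ectoderm did not pass without replicate 3 of the frontonasal ectoderm at E12.5 (-0.41). Without the 2 maxillary mesenchyme arrays that stand apart, 16 of the 24 tests passed in place of 10, the 6 added being Krt5, Krt14 and Krt18 between frontonasal and mandibular, Krt19 between maxillary and mandibular, and Krt5 and Krt14 between frontonasal and maxillary ectoderm. Their ectoderm differences are the same in both fits, since only the pooled spread changes.

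The drop of the simple pair with age was steeper in the frontonasal ectoderm. Of 11 markers of olfactory placode and forebrain, 10 were lower at E12.5 there too, against 2 in maxillary and 0 in mandibular ectoderm. Their list means in frontonasal ectoderm were 5.75 to 5.80 at E12.5 against 7.21 to 7.74 at E11.5. The means at E12.5 and E11.5 were 5.65 to 5.81 against 5.53 to 5.94 in maxillary and 5.43 to 5.54 against 5.46 to 5.54 in mandibular ectoderm. The part of these markers in the keratin drop was not tested. Krt8 fell by 2.16 (SE 0.12) between E11.5 and E12.5 there, against 1.17 (SE 0.12) in mandibular and 1.37 (SE 0.12) in maxillary ectoderm. The difference between frontonasal and mandibular changes was -0.98 ± 0.16 (adjusted p = 8.68e-05, 4.81% of probe sets called), and between frontonasal and maxillary changes -0.79 ± 0.16 (adjusted p = 0.00166, 4.8% called). Krt18 fell by 1.94 (SE 0.18) in frontonasal, 0.95 in mandibular and 1.01 in maxillary ectoderm (SE 0.18 each). Its change differed by -0.99 ± 0.26 from the mandibular (adjusted p = 0.0161) and by -0.93 ± 0.26 from the maxillary one (adjusted p = 0.0259). The Krt18 difference from the mandibular did not pass without replicate 3 of the frontonasal ectoderm at E12.5 (-0.84). That from the maxillary did not pass without any 1 of 5 arrays (-0.94 to -0.79), namely replicate 1 or 3 of frontonasal and replicate 3 of maxillary ectoderm at E11.5, and replicate 3 of frontonasal and replicate 1 of maxillary ectoderm at E12.5.

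The comparison of prominences within mesenchyme showed keratin signal in one of them above all. Frontonasal mesenchyme was higher than mandibular for 7 of 8 keratins (20.3% of probe sets called, 11.8% higher) and higher than maxillary for 6 of 8 (18.8% called). These 2 comparisons share the frontonasal arrays. Krt8 and Krt18 differed most. At E11.5 Krt8 gave 9.16, 9.21 and 9.19 in frontonasal mesenchyme, 7.05, 7.33 and 7.02 in maxillary, and 7.12, 7.10 and 7.02 in mandibular mesenchyme. At E12.5 it gave 9.55, 9.66 and 9.58 in frontonasal, 6.81, 7.20 and 6.50 in maxillary, and 6.91, 6.96 and 7.05 in mandibular mesenchyme. No frontonasal array overlapped another prominence at either age. Averaged over both ages, Krt8 was 2.37 ± 0.08 log2 units above mandibular (5.15-fold, adjusted p = 7.59e-23) and 2.41 ± 0.08 above maxillary mesenchyme (5.30-fold, adjusted p = 9.78e-23). Krt18 was 2.32 ± 0.13 above mandibular and 2.63 ± 0.13 above maxillary mesenchyme. Against maxillary mesenchyme Krt5 was 1.36 ± 0.22 and Krt14 0.91 ± 0.22 higher, and without the 2 maxillary arrays that stand apart they were 1.95 ± 0.11 and 1.52 ± 0.11 higher.

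The frontonasal signal was present from the earliest age. At E10.5 Krt8 gave 9.38, 9.48 and 9.24 in frontonasal mesenchyme, against 7.16, 7.37 and 7.16 in mandibular mesenchyme (2.14 ± 0.12). Krt18 (2.20 ± 0.18), Krt19 (1.93 ± 0.20) and Krt7 (1.04 ± 0.13) were higher as well, 4 of 8 (24.2% called). These 4 are the keratins of simple epithelium, and the 4 stratified ones did not pass, with differences from 0.06 for Krt17 to 0.73 for Krt14. Of these, Krt5 (0.47, adjusted p = 0.0163) and Krt14 (0.73, adjusted p = 0.000144) passed once the 2 maxillary arrays no longer entered the pooled spread. For E11.5 alone, 4 of 8 were higher in frontonasal than in mandibular mesenchyme (median 0.71, against -0.02 over all tested probe sets). Against maxillary mesenchyme 3 of 8 were higher at that age (median 0.58, against -0.02). Krt17 then averaged 5.09 in frontonasal and 5.05 in mandibular mesenchyme. At E12.5, 7 of 8 were higher in frontonasal than in mandibular mesenchyme (16.7% called), Krt14 by 1.37 ± 0.32, Krt17 by 1.17 ± 0.22 and Krt5 by 1.01 ± 0.31 among them. Krt15 did not pass in frontonasal mesenchyme against mandibular (-0.25 ± 0.14, interval -0.53 to 0.02) or maxillary mesenchyme (0.25 ± 0.14, interval -0.03 to 0.53), and the second of these passed without the 2 maxillary arrays (0.45, adjusted p = 0.0168), as did Krt17 (0.47, adjusted p = 0.0257).

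Markers of other cell types moved with these differences. All 12 epithelial markers other than keratins were higher in frontonasal than in mandibular mesenchyme, among them the tight junction gene Cldn6 (3.44 ± 0.17), Epcam (2.96 ± 0.20), Esrp1 (2.94 ± 0.23) and Ap1m2 (2.42 ± 0.12), and all 12 were detected on every frontonasal mesenchyme array. Of 11 markers of olfactory placode and forebrain, 10 were higher, led by Otx2 (3.73 ± 0.17), Fezf1 (3.32 ± 0.13), Sox2 (3.30 ± 0.18) and Lhx2 (2.82 ± 0.14). Otx2 passed the detection threshold on all 6 frontonasal arrays of E11.5 and E12.5, against 0 of 6 mandibular arrays. The list mean was 6.86 to 7.58 on the frontonasal mesenchyme arrays, against 5.46 to 5.80 on the other mesenchyme arrays. The anchoring genes had 10 of 18 higher, with Dsp (1.74 ± 0.23), Pkp2 (1.62 ± 0.15) and Dsc2 (1.51 ± 0.14), and the transcription factors 11 of 17, with Grhl2 (1.64 ± 0.11) and with Tfap2b (3.38 ± 0.13) and Tfap2a (2.12 ± 0.11), which are also known from neural crest mesenchyme. The part of these markers in the keratin differences was not tested.

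The same markers bear on the frontonasal prominence at E12.5, where Krt8 and Krt18 were lower in ectoderm than in mesenchyme. There the epithelial markers had 10 of 12 higher in ectoderm and 0 lower, with Cdh1 at 2.03 ± 0.23, Prss8 at 0.35 ± 0.17 and Cldn7 at 0.31 ± 0.20, and the last 2 did not pass. The placode and forebrain markers had 0 higher and 9 lower in that ectoderm, with Ebf2 at -3.54 ± 0.17, Lhx2 at -2.85 ± 0.20 and Neurod1 at -2.71 ± 0.24, and their list mean was 5.75 to 5.80 in ectoderm against 7.36 to 7.58 in mesenchyme. In the frontonasal ectoderm at E11.5 that list mean had been 7.21 to 7.74. The part of these markers was not tested here either.

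**Figure D4:**
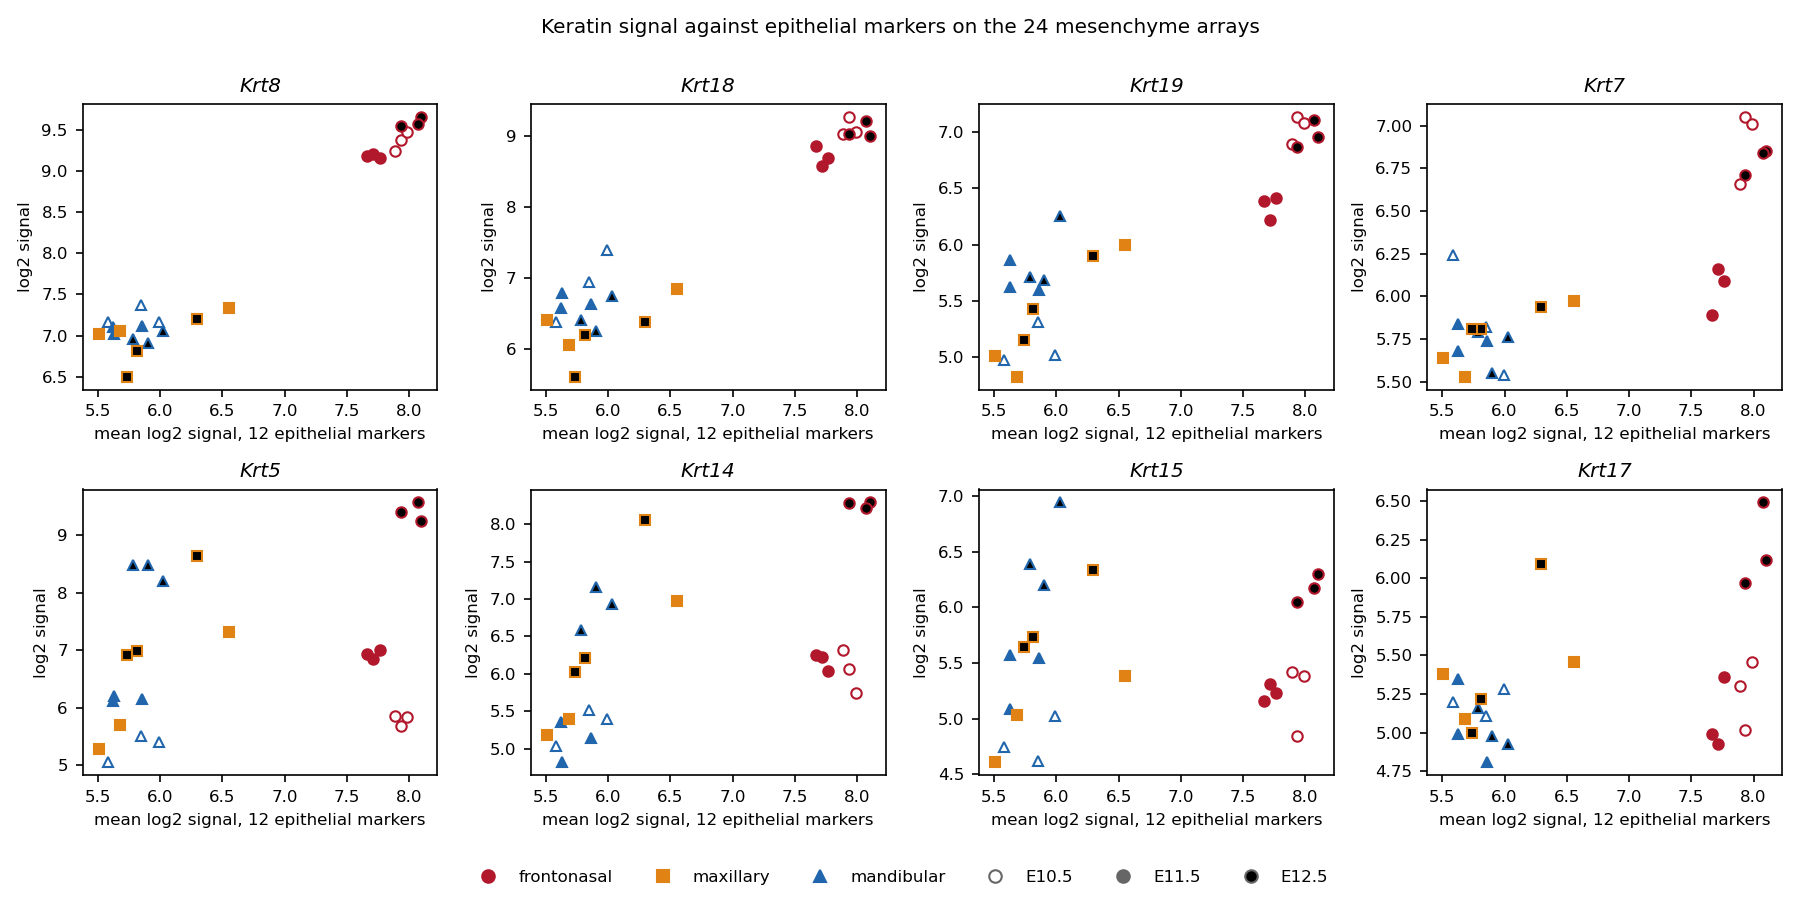
Log2 signal of each keratin (vertical axis) against the mean log2 signal of 12 epithelial markers (horizontal axis) on the 24 mesenchyme arrays, by prominence and age. The 9 frontonasal arrays lie at epithelial means of 7.67 to 8.10, apart from the 15 others, and are highest for Krt8 and Krt18 at every age, while Krt5 spreads by age at nearly the same epithelial mean.

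Between maxillary and mandibular mesenchyme Krt15 alone passed (-0.50 ± 0.14, adjusted p = 0.0103, 9.98% of probe sets called). It was lost without replicate 3 of the maxillary mesenchyme at E11.5 or without replicate 3 of the mandibular mesenchyme at E12.5 (-0.40 to -0.39 over both). Krt5 gave 6.98, 8.63 and 6.92 in maxillary mesenchyme at E12.5, against 8.48, 8.49 and 8.20 in mandibular mesenchyme. The second maxillary array is the one that stands apart, and at E11.5 its Krt5 was 7.32 beside 5.70 and 5.28. With both such arrays the Krt5 difference was -0.47 ± 0.22 (adjusted p = 0.250), and without them -1.05 ± 0.11 (adjusted p = 1.41e-08). Without them Krt18 (-0.50 ± 0.13) and Krt19 (-0.68 ± 0.12) were lower in maxillary mesenchyme too. Krt14 changed sign without passing in either fit, at 0.30 ± 0.22 with them and -0.30 ± 0.11 without.

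With age in mesenchyme, 6 of 8 keratins were higher at E12.5 than at E11.5 and 0 lower (36.7% of probe sets called). Krt5 was 2.04 ± 0.18 log2 units higher (4.11-fold, adjusted p = 1.60e-11), Krt14 1.60 ± 0.18 (3.03-fold) and Krt15 0.98 ± 0.11 (1.97-fold), and Krt17, Krt19 and Krt7 were 0.40, 0.34 and 0.28 higher. The Krt19 call was lost without replicate 1 or 3 of maxillary mesenchyme at E11.5, or without replicate 2 of maxillary or replicate 3 of mandibular mesenchyme at E12.5 (0.27 to 0.30). Within prominences, 7 of 8 keratins were higher at E12.5 in frontonasal mesenchyme (15.6% called), and Krt5, Krt14 and Krt15 in maxillary (24.3% called) and in mandibular mesenchyme (19.4% called). In mandibular mesenchyme Krt5 gave 8.48, 8.49 and 8.20 at E12.5, against 6.14, 6.12 and 6.20 at E11.5. Averaged over the prominences, Krt8 (0.00 ± 0.07, interval -0.13 to 0.14) and Krt18 (-0.07 ± 0.11, interval -0.28 to 0.15) did not pass. That average joins unlike changes of Krt8, which was among the 7 higher at E12.5 in frontonasal mesenchyme. Its means from E11.5 to E12.5 went from 9.19 to 9.60 in frontonasal mesenchyme. They went from 7.13 to 6.84 in maxillary and from 7.08 to 6.97 in mandibular mesenchyme. The 12 epithelial markers had 2 higher and 0 lower between these ages, with a median of 0.14. Between E10.5 and E11.5, averaged over frontonasal and mandibular mesenchyme, 1 keratin was higher and 1 lower at E11.5 (26.1% called). These were Krt5 by 0.99 ± 0.22 and Krt7 by -0.49 ± 0.09. The Krt7 means went from 6.91 to 6.05 in frontonasal but only from 5.87 to 5.75 in mandibular mesenchyme. Krt19 went from 7.03 to 6.34 in frontonasal and from 5.10 to 5.69 in mandibular mesenchyme, an average of -0.05 that did not pass.

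Tests of the difference between layers in these changes separated the keratins. The age change was more positive in ectoderm than in mesenchyme for Krt17 (1.29 ± 0.18, adjusted p = 5.29e-07) and more negative for Krt8 (-1.57 ± 0.09, adjusted p = 3.16e-15) and Krt18 (-1.24 ± 0.15, adjusted p = 3.77e-08), 3 of 8 (23.9% of probe sets called). For Krt5 (-0.40 ± 0.25, interval -0.92 to 0.12) and Krt14 (-0.07 ± 0.26, interval -0.60 to 0.45) the layers did not differ beyond error in their age change, although Krt5 passed without the 2 maxillary mesenchyme arrays (-0.42, adjusted p = 0.0120). The layer difference was smaller in the frontonasal than in the mandibular prominence for 7 of 8 keratins (18.5% called), by -2.77 ± 0.12 for Krt8 and -2.64 ± 0.18 for Krt18, while Krt7 did not pass (-0.31 ± 0.13, interval -0.57 to -0.05). Against the maxillary prominence it was again smaller for 7 of 8 (11.6% called), and 1 of 8 differed between the maxillary and mandibular prominences (6.68% called). In mesenchyme the age change differed for 2 of 8 between frontonasal and mandibular (2.89% called) and for 1 of 8 between frontonasal and maxillary prominences (2.76% called). In the authors' deposited table, the q-value for age with layer was 6.54e-17 for Krt8, 1.24e-11 for Krt18 and 1.73e-07 for Krt17, against 0.133 for Krt5 and 0.212 for Krt14. For Krt15 that q-value was 9.18e-05. The limma test of its change from E11.5 to E12.5 between layers did not pass (0.41 ± 0.16, adjusted p = 0.0569). That test passed without any 1 of 9 arrays (0.34 to 0.48 over all 45 left out in turn). These limma tests leave out the step from E10.5 to E11.5, which the authors' term for age may include. The q-values and the limma tests may therefore answer different questions, and their difference for Krt15 was not tested. For Krt14 the authors' deposited q-value was 0.944 for prominence and 0.00153 for prominence with layer. In the limma fit its frontonasal minus mandibular difference was 1.22 in mesenchyme, which passed, and -0.44 in ectoderm, which did not.

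Ranked over the 15 groups, Krt8 was highest in mandibular ectoderm at E10.5 (11.24 ± 0.15; SD, n = 3). It was followed by frontonasal, mandibular and maxillary ectoderm at E11.5 (10.71 ± 0.15, 10.63 ± 0.08 and 10.22 ± 0.08). Frontonasal mesenchyme at E12.5 (9.60 ± 0.06) came next, above mandibular ectoderm at E12.5 (9.45 ± 0.07), and the lowest ectoderm group was frontonasal at E12.5 (8.56 ± 0.10). The 5 mandibular and maxillary mesenchyme groups closed the order, between 7.23 and 6.84, and each overlapped its neighbour. Of 14 neighbouring pairs in the order, the arrays of 6 overlapped for Krt8, 7 for Krt5, 8 for Krt14 and Krt18, 9 for Krt15 and Krt7, 10 for Krt17 and 11 for Krt19. Krt5 and Krt15 were highest in maxillary ectoderm at E12.5 (12.53 ± 0.07 and 10.42 ± 0.13), Krt14 and Krt17 in mandibular ectoderm at E12.5 (11.73 ± 0.07 and 8.79 ± 0.41), Krt7 in frontonasal ectoderm at E12.5 (9.82 ± 0.12) and Krt18 in mandibular ectoderm at E10.5 (11.15 ± 0.09). Krt19 was highest in maxillary ectoderm at E12.5 (9.82 ± 0.09), which overlapped the mandibular ectoderm at E11.5. Levels of different keratins are not compared, since each probe set has its own response.

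The genes whose group means most resembled each keratin over the 15 groups were the following. They were ranked by Pearson r among named genes of the authors' model table other than the 8 keratins. Krt8 and Krt18 themselves had an r of 0.99 over these groups. For Krt8 these were Cldn7, a claudin of tight junctions (r = 0.98), Bend7 and Cmtm8, and for Krt18 they were Cmtm8 (r = 0.98), Cldn7 and Slain1. Krt5 was nearest to the tetraspanin Cd9 (r = 0.98), Arhgef12 and Cryl1, and Krt14 to Tmcc3 (r = 0.99), Ssh3 and Iqgap1. Krt15 was nearest to Rxra, a retinoid receptor partner (r = 0.98), Dbp and Micall1. Krt17 was nearest to Lgals7, a galectin of stratified epithelium (r = 0.98), and to Lama3 and Itgb4, which are parts of the basal attachment. Krt19 was nearest to Map7 (r = 0.99) and Ripk4, and Krt7 to Hip1r (r = 0.99), Ovol2 and Prom2. Over the 8 mesenchyme groups alone, Krt8 was nearest to St18 (r = 0.99), Plch1 and Zdhhc23, Krt18 to Cmtm8 (r = 0.99), Zdhhc23 and Bend7, and Krt19 to Prom2 (r = 0.98), Ptpn3 and Stx3. St18 followed Krt8 less closely over all 15 groups (r = 0.36). Such r values are descriptions over groups that share a layer contrast.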

How the data were processed

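RNA was measured on 45 Affymetrix Mouse Gene 1.0 ST arrays. Per the submitters' processing notes, which name Affymetrix Power Tools 1.91, RMA and mm9, the authors deposited normalized log2 values, 1 per probe set. They also deposited detection p-values, made with apt 1.8.0 per the file headers, and a model table of q-values for 9626 probe sets. A detection p under 0.05 counted as detected. Gene names came from the authors' model table, updated through RefSeq. Genes that it does not name are therefore absent from the lists and from the likeness ranking.

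Samples were grouped by the labels' layer, prominence and age. The tests covered the 14472 probe sets whose variance exceeded 0.0414, the median. A model of 15 group means was fitted to the 45 arrays with limma 3.58.1 (R 4.3.3), with moderated contrasts. Benjamini-Hochberg adjustment ran over every probe set in the test, and 0.05 was the threshold. Errors are SE of the fit unless marked SD. Differences over several prominences or ages weight them equally. The number of arrays limits the precision. Code was tested on simulated data. Python 3.11.15, numpy 2.4.6, pandas 2.3.3 and matplotlib 3.10.9 were used for the rest.

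The members and lists were chosen with earlier results of these data known. From each list up to 4 genes with the largest differences could be named. From the likeness ranking up to 3 genes per keratin were named. Some genes that these rules name are not reported here. Pkp2 and Cd151 in the age comparison, Trp63 there, Prss8, Cldn7 and Krt16 were named outside this rule after their values were seen. Alternatives were other filters, moderation, scaling, weights, a replicate block, only the groups compared, and each array left out.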

Additional observations from a re-analysis of the deposited data

Results flagged for a closer look

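Interaction terms of the limma fit passed the threshold for 28 of 80 tests of a keratin, each a difference in one contrast between 2 layers, prominences or ages. In the comparisons with a called keratin, between 2.76% and 23.9% of all tested probe sets were called. The layer differences of the frontonasal against the mandibular and against the maxillary prominence gave 7 calls each, and these comparisons share the frontonasal arrays. No other kind of flag was raised, as groups of 3 arrays are not tested for outlying arrays.

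The layer difference (ectoderm minus mesenchyme) at E12.5 against that at E11.5 moved by 1.29 for Krt17, -1.57 for Krt8 and -1.24 for Krt18.

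The layer difference in the frontonasal against that in the mandibular prominence moved by -1.34 for Krt5, -1.66 for Krt14, -1.30 for Krt15, -1.41 for Krt17, -2.77 for Krt8, -2.64 for Krt18 and -1.39 for Krt19. Against the maxillary prominence the frontonasal values were -1.70 for Krt5, -1.40 for Krt14, -1.13 for Krt15, -0.92 for Krt17, -2.31 for Krt8, -2.68 for Krt18 and -1.42 for Krt19. The layer difference in the maxillary against the mandibular prominence moved by -0.46 for Krt8 alone. Without the 2 maxillary mesenchyme arrays that stand apart, that value was -0.32 (adjusted p = 0.0585) and Krt5 passed instead (0.94). The epithelial markers other than keratins had 0 of 12 higher and 12 of 12 lower in the layer difference of the frontonasal against the mandibular prominence, with a median of -1.81. Their part was not tested.

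In ectoderm, the frontonasal minus mandibular difference at E12.5 against that at E11.5 moved by -0.98 for Krt8 and -0.99 for Krt18. The frontonasal minus maxillary difference moved by -0.96 for Krt15, -0.79 for Krt8 and -0.93 for Krt18. The Krt15 value of the last comparison did not pass without any 1 of 7 arrays (-0.99 to -0.78). The maxillary minus mandibular difference moved by 1.61 for Krt15 and 1.14 for Krt19.

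In mesenchyme, the frontonasal minus mandibular difference moved by 1.13 for Krt17 and 0.81 for Krt7, and the frontonasal minus maxillary difference by 0.71 for Krt8. The Krt17 value did not pass without any 1 of 7 arrays (0.98 to 1.16), and the Krt8 value did not pass without replicate 3 of maxillary mesenchyme at E12.5 (0.54).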

How the results depend on the processing

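Over 168 tests of a keratin (8 in 21 comparisons) and 55 alternatives (1 more for the layer differences, without the frontonasal combinations), 9105 repeats kept the side of the threshold, 57 lost a call and 86 gained one. The sign changed in 81 repeats of 23 tests, of which 0 were called in either fit. The layer calls were 8 in every setting. Leaving out each array in turn gave 9 to 11 calls for prominence in ectoderm (10 with all arrays), 13 to 17 for prominence in mesenchyme (14), 13 to 15 for age in ectoderm (15), 7 to 9 for age in mesenchyme (8) and 26 to 35 for the interactions (28). Apart from left-out arrays, fitting only the groups compared moved the most calls of the planned settings, with 8 lost and 5 gained. Without the replicate 2 arrays of maxillary mesenchyme at E11.5 and E12.5, an alternative chosen after seeing the data, the calls for prominence in ectoderm were 16 against 10, and 22 calls were gained and 1 lost over all 168. Krt5 and Krt14 vary most between these arrays, so the pooled SE of their layer difference fell to 0.06 and 0.05.

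The replicate block changed 0 calls, and its counts were 8, 10, 14, 15, 8 and 28. Residuals of same-numbered ectoderm and mesenchyme samples correlated between -0.42 and 0.36 over 21 pairs, and 10 matched their own number best. Whether the numbers pair the samples cannot be told from these correlations, and the tests treated the samples as unpaired. The block holds replicate effects shared by all 15 groups, so it cannot speak to pairing within a prominence and age.

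Limits. Layers were peeled, and marker lists show each layer's RNA in the other. Krt17 and Krt19 were near background in much of the mesenchyme, where fold changes are understated. Krt17 and Krt7 between E10.5 and E11.5 in mandibular ectoderm lost their calls without some single arrays (6 and 4 of 45), as did Krt19 between E11.5 and E12.5 in mesenchyme (4), Krt15 (7) and Krt18 (5) in the frontonasal minus maxillary change in ectoderm, and Krt17 (7) in the frontonasal minus mandibular change in mesenchyme.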
